A study of Mus musculus with 12 samples.

Results

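The genes described here are Cap2, Gdpd3, Rassf4, Asic5, Eif4a1, Sarnp and Capza1, 7 of the 18784 genes named on the array. They were chosen by their measured strain values: they were picked because the liver values of KK mice and of C57BL/6J mice lay far apart, alike in females and in males, and because they belong to no metabolic gene family. Each was measured by 1 probe set. The strain values of these 7 genes are therefore given as a description, without a test. Values that the choice did not use, namely the difference between the sexes averaged over both strains, the paralogs, the partner genes and the chromosome neighbours, were tested. The gene lists were, however, drawn up with earlier results of these data known.

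RNA was measured in the large liver lobe of 12 mice aged 8 weeks, with 1 array per mouse. There were 3 females and 3 males of C57BL/6J (B6), the common reference strain, and 3 females and 3 males of KK, an inbred strain that becomes obese and responds poorly to insulin. The labels give the KK strain as KK/HIJ in one field and as KK/J in another. The mice of all 4 groups ate chow, were housed singly over the last 3 days and had no food in the final 4 hours. No transgene, deletion or drug is named for any group, so sex and the inbred background are all that sets the groups apart in the labels. Values are RMA log2 expression values, on which a difference of 1 is a doubling. The median of an array lay between 5.9 and 6.03 and its interquartile range between 2.64 and 2.97. Arrays of a group correlated at 0.992 to 0.996 across probe sets, while between groups the values were 0.975 to 0.993. The 12 hepatocyte markers measured had a mean log2 value between 12.86 and 12.98 on the arrays. As a scale for the low values, the probe sets of 3 Y-linked genes (Eif2s3y, Uty and Kdm5d) lay between 3.79 and 4.66 in the 6 female arrays, where these genes are absent. Background differs between probe sets, so this range is no detection limit for another gene, and detection calls were not used here. Folds are therefore ratios of signals, and the ratio of RNA may be larger where a value is near background.

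The 7 genes take part in separate processes of the cell. Cap2 and Capza1 act on actin filaments: cyclase-associated protein 2 binds actin monomers and speeds the turnover of filaments and is best known from heart and skeletal muscle, while Capza1 encodes the alpha 1 subunit of the capping protein CapZ, which with a beta subunit blocks the growing end of a filament. Eif4a1 encodes the DEAD-box helicase that unwinds the 5' ends of mRNAs as part of the cap-binding complex eIF4F, and Sarnp an RNA-binding protein of the TREX complex, which couples mRNA processing to export from the nucleus. Gdpd3 encodes a glycerophosphodiester phosphodiesterase that works as a lysophospholipase D, Rassf4 a protein with a Ras association domain, and Asic5 a sodium channel of the ENaC family that is gated by bile acids and known from bile duct cells and the intestine.

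The 7 genes lie on 6 chromosomes, with Asic5 and Capza1 both on chromosome 3, and the 250 bases before their starts differ in kind. In the RefSeq promoter table, which is of the C57BL/6J reference, the ratio of observed to expected CpG was 0.84 for Eif4a1, 0.74 for Sarnp, 0.71 for Rassf4 and 0.7 for Capza1, against a median of 0.37 over the 32851 promoters of the table. It was 0.47 for Cap2, 0.23 for Gdpd3 and 0.13 for Asic5. The promoters with the highest and the lowest ratio are shown, 5' to 3' on the gene's strand and with each CpG in capitals. That of Eif4a1 lies at chr11:69672424-69672673 on the minus strand and that of Asic5 at chr3:81996672-81996921 on the plus strand (GRCm38.p6).
Eif4a1: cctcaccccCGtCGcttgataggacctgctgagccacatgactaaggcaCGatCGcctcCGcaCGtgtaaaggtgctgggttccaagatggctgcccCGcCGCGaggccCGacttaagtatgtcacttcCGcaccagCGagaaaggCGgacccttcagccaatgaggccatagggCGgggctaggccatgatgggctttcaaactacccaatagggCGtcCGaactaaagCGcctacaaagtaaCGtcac
Asic5: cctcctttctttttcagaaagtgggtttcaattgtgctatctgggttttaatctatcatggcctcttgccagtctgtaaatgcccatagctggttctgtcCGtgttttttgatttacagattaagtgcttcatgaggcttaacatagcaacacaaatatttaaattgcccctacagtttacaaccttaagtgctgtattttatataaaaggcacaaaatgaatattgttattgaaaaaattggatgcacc
The Eif4a1 stretch holds 18 CpG sites at a GC content of 58.8%, and the Asic5 stretch holds 1 at 35.6%. The letters TATAAA, searched on both strands, were found in the promoter of Asic5 alone among the 7, and in 12.4% of all promoters. The letters CCAAT were found in 4 of the 7 (Rassf4, Asic5, Eif4a1 and Sarnp) and in 33.8% of all, and GGGCGG in 3 of the 7 (Rassf4, Eif4a1 and Sarnp) and in 32.7% of all. No sequence of the KK strain was used here.

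Of the 7 genes, Cap2, Gdpd3, Rassf4 and Asic5 were higher in KK and Eif4a1, Sarnp and Capza1 were lower. For each of the 7, all 6 KK values lay on one side of all 6 B6 values, as the choice of the genes required; this was so for 5.98% of the 21212 probe sets, and for 0.0896% with a difference at least as large as that of Asic5, the smallest of the 7. By limma 11.7% of all probe sets passed an adjusted p of 0.05 between the strains, 5.42% higher and 6.31% lower in KK. Single probes were not used here, so a difference in RNA and a difference between the strains in the sequence under the probes cannot be told apart for any of these genes. The samples are pieces of whole liver, in which fewer cells of a type and less RNA per cell cannot be told apart either.

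Cap2 had the most even values. In B6 it read 4.86, 4.87 and 4.8 in the 3 females and 4.95, 4.84 and 4.66 in the 3 males. In KK it read 8.47, 8.39 and 8.67 in females and 8.65, 8.45 and 8.6 in males. The strains were 3.44 apart at their nearest values, while the 6 values of a strain spanned 0.29 in B6 and 0.28 in KK. The difference was 3.71 log2 (SE 0.07, n = 6 mice per strain, 13.1-fold). The highest value of the absent Y-linked transcripts, 4.66, equals the lowest Cap2 value of B6 to 2 decimals.

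Gdpd3 was as even as Cap2 in B6 but not in KK. It read 4.43, 4.53 and 4.47 in B6 females and 4.54, 4.51 and 4.57 in males, a span of 0.14. In KK it read 8.36, 7.06 and 7.25 in females and 7.46, 6.51 and 7.59 in males, a span of 1.85. KK female 1 was the highest and KK male 2 the lowest, still 1.94 above every B6 value. The difference was 2.87 (SE 0.22, 7.29-fold). All 6 B6 values lay within the range of the absent transcripts.

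Rassf4 lay above the range of absent transcripts in both strains. It read 6.3, 6.01 and 6.27 in B6 females and 6.08, 6.04 and 5.88 in males, against 8.82, 8.47 and 8.85 in KK females and 9.13, 8.91 and 9.36 in KK males. The strains did not overlap, and the KK males reached higher than the KK females. The difference was 2.83 (SE 0.09, 7.1-fold), at 2.52 (SE 0.13) in females and 3.14 (SE 0.13) in males.

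Asic5 lay above that range in both strains as well. It read 6.99, 7.09 and 6.95 in females and 7.35, 6.86 and 7.19 in males of that strain, and 9.63, 9.49 and 9.97 in KK females and 10.03, 9.92 and 9.83 in KK males. The 2 sexes overlapped within each strain, and the strains lay 2.14 apart. The difference was 2.74 (SE 0.10, 6.68-fold). Whether any of the 7 genes is off in a strain cannot be told from these values.

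Eif4a1 was even in B6 and uneven in KK. It read 8.85, 8.92 and 8.82 in B6 females and 8.82, 8.75 and 8.9 in males, a span of 0.17. In KK it read 5.22, 4.24 and 4.62 in females and 4.94, 4.18 and 5.72 in males, a span of 1.54. KK male 2 was lowest, 3 of the 6 KK values lay within the range of the absent Y-linked transcripts, and KK male 3 was highest. The difference was -4.02 (SE 0.22, 16.2-fold).

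Sarnp varied in both strains. It read 7.21, 7.95 and 8.42 in B6 females and 7.48, 8.07 and 8.43 in males, a span of 1.22, and 3.9, 3.69 and 4.7 in KK females and 4.13, 3.78 and 3.92 in KK males, a span of 1.01. In KK 5 of the 6 values lay within or below the range of the absent transcripts, and KK female 3 lay just above it. The difference was -3.91 (SE 0.23, 15-fold), and the gap between the strains was 2.51. In B6 the values rose with the replicate number in both sexes. Deviations from the group mean were -0.65, 0.09 and 0.56 in females and -0.52, 0.08 and 0.44 in males. In KK the values did not follow this order, and its source was not tested.

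Capza1 varied the most. It read 8.52, 8.64 and 9.5 in B6 females and 8.79, 9.33 and 8.44 in males, against 5.86, 4.63 and 6.5 in KK females and 6.33, 4.72 and 4.72 in KK males. In KK the values fell into a higher trio (female 1, female 3 and male 1) and a lower trio (female 2, male 2 and male 3) that ran across the sexes, and 1 of the 6 lay within the range of the absent transcripts. The difference was -3.41 (SE 0.36, 10.6-fold), with a gap of 1.94 between the strains.

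**Figure D1:**
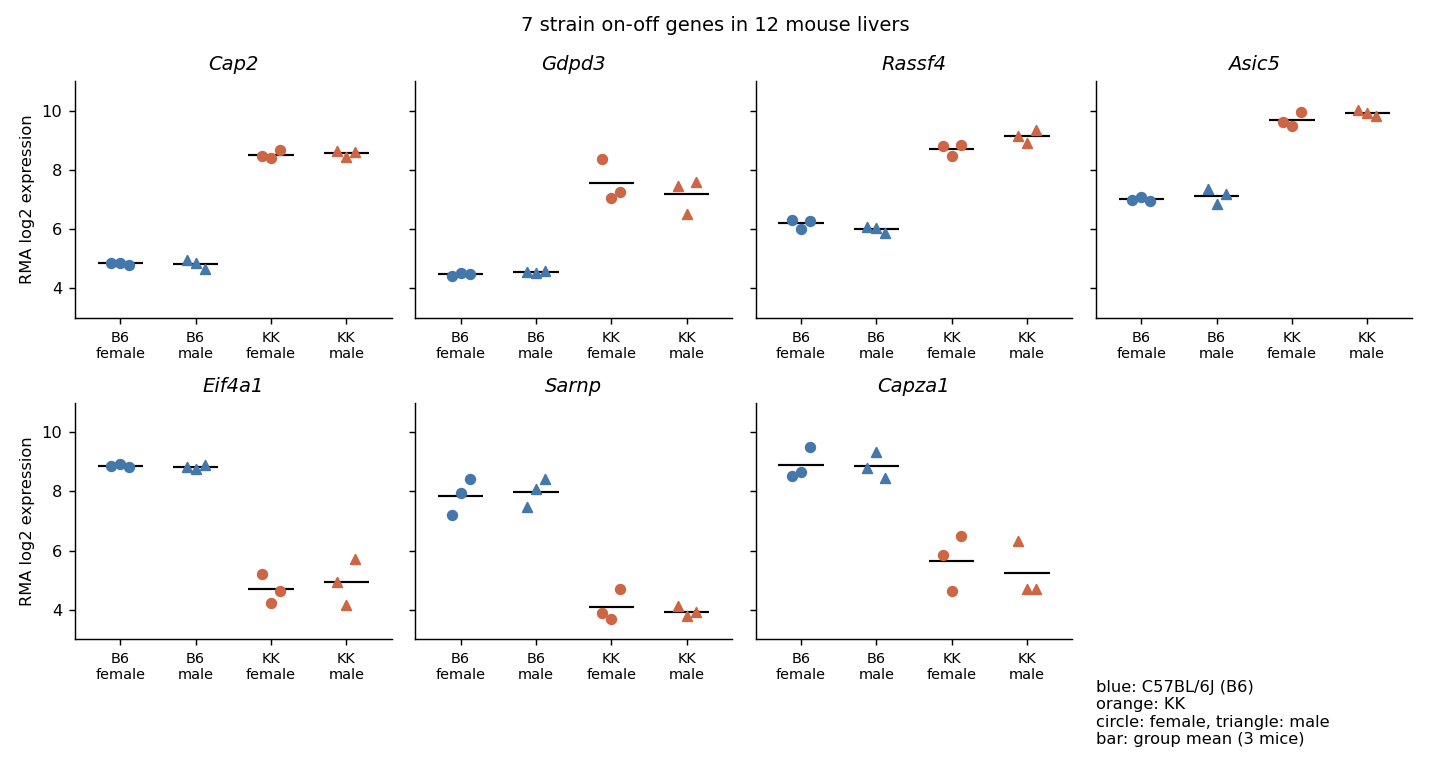
RMA log2 expression (y axis) of the 7 genes in each of the 12 livers by strain and sex (x axis), with 1 point per mouse and a bar at the mean of 3 mice. Cap2, Gdpd3, Rassf4 and Asic5 sit higher in KK, Eif4a1, Sarnp and Capza1 sit lower, the strains do not overlap for any of them, and the KK points of Gdpd3, Eif4a1 and Capza1 spread over 1.85, 1.54 and 1.87.

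The SD of Capza1 within groups, pooled over the 4 groups, was 0.75, which was higher than that of 99.9% of all probe sets. Sarnp stood at the percentile 99.7 (0.479), and Gdpd3 and Eif4a1 at 99.6 (0.46 each). Asic5 (percentile 84.8), Rassf4 (83) and Cap2 (48.3) were less variable. Deviations of each array from its group mean were compared between the 7 genes as a description over 12 arrays and 21 pairs. Gdpd3 and Eif4a1 deviated together most closely, with a Pearson correlation of 0.89, although 1 is higher and the other lower in KK. In the KK arrays Gdpd3 and Eif4a1 deviated by 0.80 and 0.53 in female 1, by -0.49 and -0.46 in female 2, by -0.31 and -0.07 in female 3, by 0.28 and -0.01 in male 1, by -0.68 and -0.77 in male 2 and by 0.41 and 0.77 in male 3. KK female 1 and KK male 2 also had the widest and the narrowest interquartile range of the 12 arrays, at 2.97 and 2.64; B6 female 3 shared the widest. KK female 2 and KK male 2 both lay below their group means for Cap2, Gdpd3, Rassf4, Eif4a1, Sarnp and Capza1. For Asic5 they deviated by -0.21 and 0.00. The part of the array's distribution and of the replicate number in these deviations was not tested. Rassf4 and Eif4a1 had a correlation of 0.71, Cap2 and Rassf4 one of 0.63, and Cap2 and Capza1 one of 0.58. For Sarnp and Capza1 and for Gdpd3 and Rassf4 it was 0.57. Sarnp and Gdpd3 had one of 0.03, and the lowest of the 21 was -0.04, for Gdpd3 and Asic5.

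**Figure D2:**
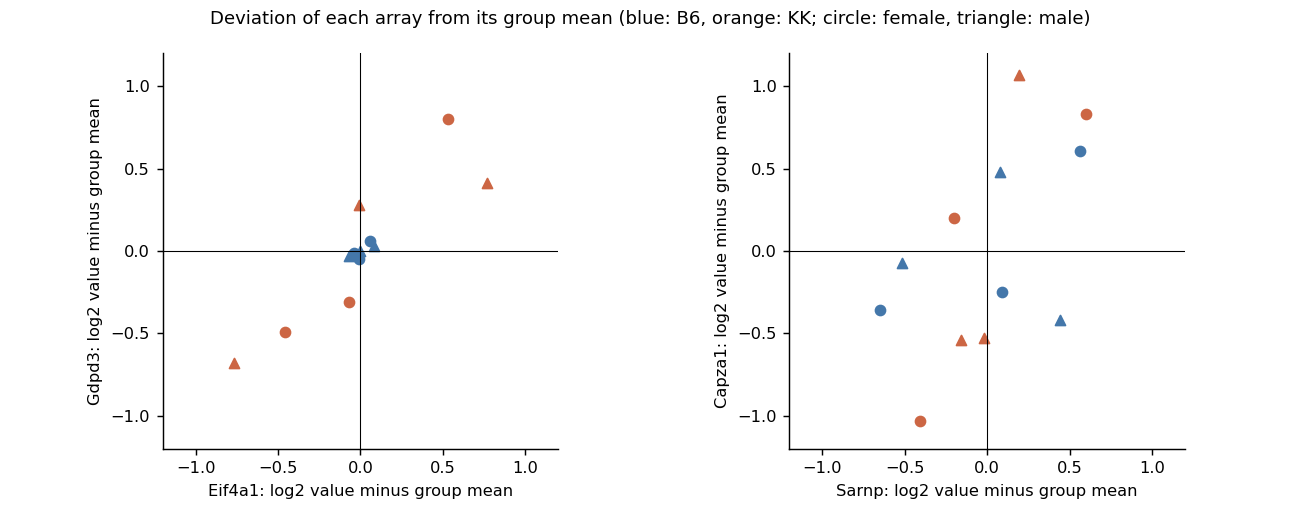
Deviation of each array from its group mean in log2 units, for Gdpd3 (y axis) against Eif4a1 (x axis) on the left and Capza1 (y axis) against Sarnp (x axis) on the right, with 1 point per mouse. On the left the KK points run from -0.68 and -0.77 in male 2 up to 0.80 and 0.53 in female 1 while the B6 points lie near 0; on the right both strains spread.

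The sexes were compared with limma over all probe sets. Of the 7 genes, 0 were called between males and females over both strains (0 at an unadjusted p under 0.05; 3.66% of all probe sets were called). Cap2 differed by 0.01 over both strains, with a 95% interval of -0.13 to 0.16. The interval was -0.09 to 0.31 for Rassf4, -0.03 to 0.38 for Asic5, -0.63 to 0.32 for Gdpd3, -0.37 to 0.59 for Eif4a1, -0.51 to 0.49 for Sarnp and -1 to 0.55 for Capza1. The widest intervals belong to the genes with the widest spread within groups.

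Within a strain the difference between the sexes also holds the difference of the strain effect between the sexes, on which the choice drew, so the values there are a description; 0 of the 7 were called in B6 (1.03% of all probe sets) and 0 in KK (2.17%), and nothing is read from these counts. For Rassf4, KK males averaged 9.13 (SD 0.22, n = 3) and KK females 8.72 (SD 0.21, n = 3), a difference of 0.42 (SE 0.13), and every KK male lay above every KK female. In B6 the difference was -0.20 (SE 0.13). The strain difference of Rassf4 in males minus that in females was 0.62 (SE 0.19), the largest such value of the 7, which is given without a test because likeness of the sexes was a ground of choice. The other 6 had values between -0.44 (Gdpd3) and 0.30 (Eif4a1).

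**Figure D3:**
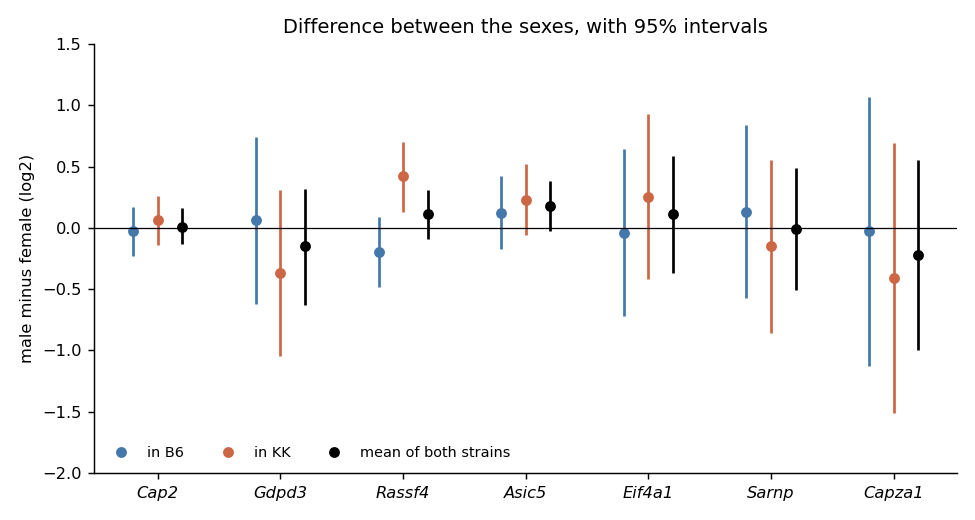
Male minus female difference in log2 units (y axis) for the 7 genes (x axis), in B6 (blue), in KK (orange) and as the mean of both strains (black), with lines for 95% intervals of the limma fit. Rassf4 in KK stands at 0.42 (0.13 to 0.70) and Capza1 in KK at -0.41 with the widest interval; values within a strain are a description.

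The paralogs show how the rest of each gene family was expressed. Of 27 paralogs measured, 1 was higher and 1 lower in KK by limma, against 11.7% of all probe sets called. At an unadjusted p under 0.05 by limma there were 6 of the 27, against 4808 of all 21212 probe sets. The differences of the paralogs lay between -0.24 and 0.30 with a median of 0.02 (0.01 over all probe sets). In females 1 of the 27 was called (6.5% of all probe sets) and in males 1 (5.15%). Sarnp has no paralog in the lists. The paralogs of Capza1 were counted with Capzb, which is the beta subunit that pairs with it and not another alpha subunit.

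Cap1, the widely expressed partner of Cap2 in its family, had group means of 9.28 in B6 females, 9.08 in B6 males, 9.23 in KK females and 8.98 in KK males. Its strain difference was -0.08 (95% interval -0.20 to 0.04, adjusted p = 0.508 by limma). Among the paralogs of Gdpd3, Gdpd1 differed by 0.06, Gdpd2 by 0.05, Gdpd4 by -0.02 and Gdpd5 by 0.02, with adjusted p between 0.723 and 0.92. Gde1, a family member that cleaves glycerophospho-N-acylethanolamines, differed by 0.28 (SE 0.10, adjusted p = 0.0983 by limma). It was called after quantile normalization (adjusted p = 0.0207), after loess normalization (0.0209), with array weights (0.0245) and with the interquartile range as a covariate (0.00913).

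Of the 9 other Rassf genes, Rassf8 rose in KK by 0.30 (SE 0.04, adjusted p = 0.000712 by limma). Its 6 KK values, from 7.57 to 7.73, lay above its 6 B6 values, from 7.27 to 7.48. The other 8 lay between -0.09 (Rassf9) and 0.23 (Rassf6, adjusted p = 0.313), with Rassf5 at 0.17 (adjusted p = 0.0628). Rassf5 was called without B6 male 2 (adjusted p = 0.0447) and without KK male 3 (0.0466), and with the interquartile range as a covariate (0.0445), as was Rassf6 (0.0112).

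The ASIC genes Asic1 to Asic4, which encode acid-sensing channels of neurons, differed by -0.06 to 0.07, with adjusted p of at least 0.561. Of the ENaC subunits, Scnn1b differed by 0.07, Scnn1g by 0.02 and Scnn1a by 0.27 (SE 0.09, adjusted p = 0.063 by limma). Scnn1a was called after quantile (adjusted p = 0.0342) and loess normalization (0.0444), among probe sets above the median (0.0392), with array weights (0.0158) and with the interquartile range as a covariate (0.0184), and without B6 female 3, B6 male 3 or KK female 3 (0.0281 to 0.0462).

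Eif4a2, the near twin of Eif4a1 in the cap-binding complex, fell by 0.24 in KK (SE 0.05, adjusted p = 0.0134 by limma), from 10.46 and 10.47 in B6 females and males to 10.28 and 10.19. Its highest KK value, 10.42, equalled its lowest B6 value to 2 decimals. It was not called in females (adjusted p = 0.221) or males (0.0557) alone, and after quantile normalization it differed by -0.15 (adjusted p = 0.0431). Eif4a3, the helicase of the exon junction complex, differed by 0.01 (95% interval -0.19 to 0.21). Capza2, the alpha subunit most like Capza1, differed by -0.16 (95% interval -0.29 to -0.03, adjusted p = 0.124), the beta subunit Capzb by -0.08 (-0.18 to 0.02) and the testis subunit Capza3 by 0.00 (-0.11 to 0.11).

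Counts of paralogs rested on few genes. Over both sexes 4 were called after quantile or loess normalization and with array weights, and 6 with the interquartile range as a covariate. In females 0 were called without B6 female 1 or KK female 1. In males 0 were called without B6 male 2 or KK male 1, and 2 without KK female 1 or KK female 2.

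**Figure D4:**
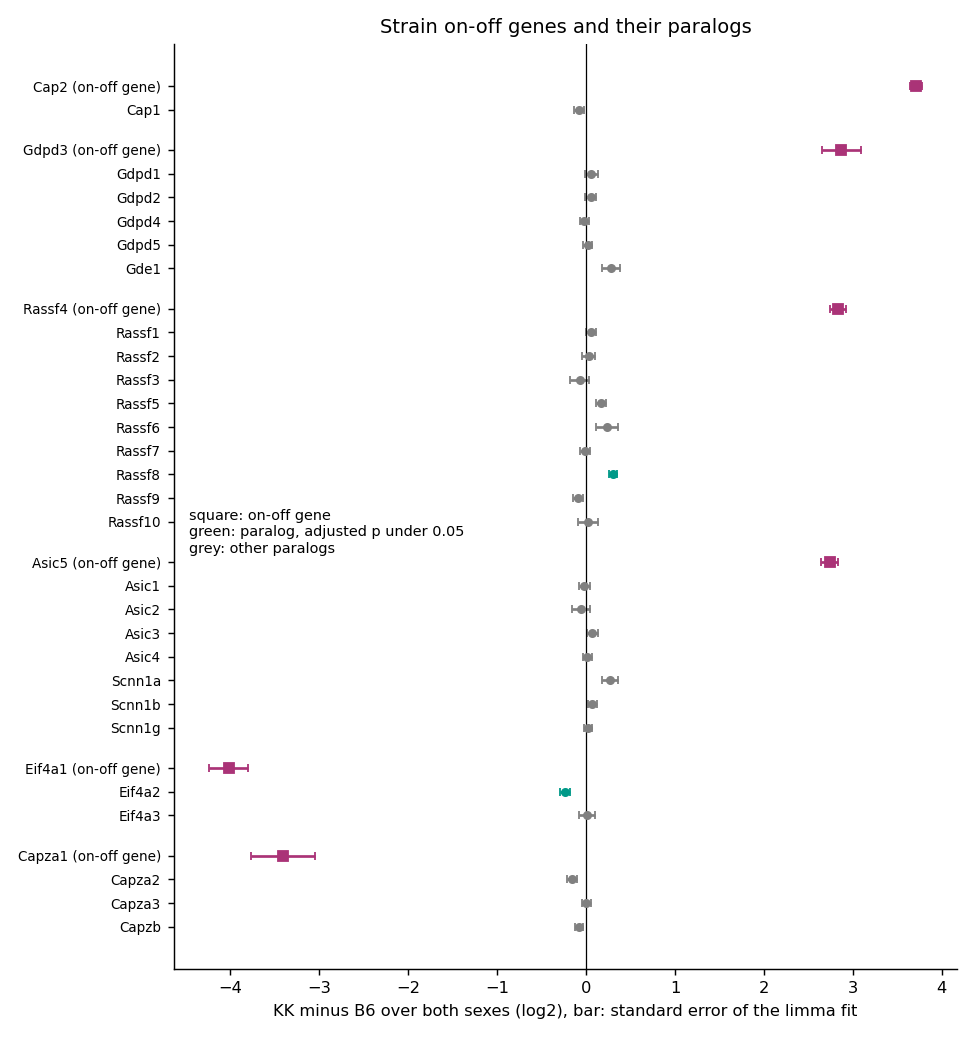
KK minus B6 difference over both sexes in log2 units (x axis) for the chosen genes with measured paralogs (squares, labelled on-off genes) and their paralogs (dots), with bars for the standard error of the limma fit. The label names the choice and does not mean that a gene is off in a strain. The dots include Capzb, the beta subunit that pairs with Capza1. The squares lie at -4.02, -3.41 and 2.74 to 3.71, and the 27 paralogs between -0.24 and 0.30, with Rassf8 and Eif4a2 in green as the called ones.

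The partner lists hold genes that work in the same processes. Of 101 partner genes measured over 5 lists, 5 were higher and 14 lower in KK by limma, against 11.7% of all probe sets called, and their median difference was -0.01. At an unadjusted p under 0.05 by limma there were 38 of the 101, against 4808 of all 21212 probe sets. With the interquartile range as a covariate 30 were called.

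Of 24 genes of translation initiation, 3 rose, 4 fell and 17 were not called (median -0.08). Eif4g3, a scaffold subunit of eIF4F that holds the helicase, rose by 0.90 (SE 0.07, adjusted p = 2.88e-06), with all B6 values at 8.09 or below and all KK values at 8.55 or above. Eif4ebp2, which encodes a repressor of translation initiation, rose by 0.51 (adjusted p = 0.000783) and the cap-binding gene Eif4e3 by 0.54 (adjusted p = 0.00186). Pdcd4, which encodes an inhibitor of the eIF4A helicase, fell by 0.61 (SE 0.08, adjusted p = 0.000337), from 9.69 and 9.75 in B6 females and males to 9.19 and 9.03. Of 14 genes of the TREX complex and mRNA export, 1 fell and 0 rose, and 2 had an unadjusted p under 0.05 by limma. The gene was Thoc5, a THO subunit, at -0.40 (SE 0.05, adjusted p = 0.000218).

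Of 28 genes of actin capping and turnover, 1 rose, 4 fell and 23 were not called (median -0.01). The gene that rose was Cfl1, a cofilin gene, by 0.21 (SE 0.05, adjusted p = 0.0234 by limma). The Arp2/3 subunit genes Arpc5 and Arpc1b both fell by 0.40 (adjusted p = 0.000253 and 0.00356), and the actin depolymerizing factor gene Dstn fell by 0.51 (adjusted p = 0.0113). Gsn, the gelsolin gene, fell by 0.32 (adjusted p = 0.0221), but its adjusted p was 0.0503 to 0.0543 without B6 female 2, B6 male 2, KK female 3 or KK male 3, and 0.0675 with array weights.

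Of 19 genes of lysophospholipid and acylethanolamine metabolism, 1 rose, 4 fell and 14 were not called (median 0.02). Gpcpd1, which encodes a glycerophosphocholine phosphodiesterase, fell by 1.09 (SE 0.12, adjusted p = 7.04e-05), from 11.05 and 11.01 in B6 females and males to 9.70 and 10.18. Abhd6, a monoacylglycerol lipase gene, fell by 0.93 (SE 0.05, adjusted p = 2.9e-07), with all KK values at 8.60 or below and all B6 values at 9.22 or above. The phospholipase gene Pla2g6 rose by 0.48 (adjusted p = 0.00162). Plpp2, a lipid phosphate phosphatase gene, fell by 0.28 (adjusted p = 0.0224), but its adjusted p was 0.051 to 0.0593 without B6 male 2, B6 male 3, KK female 2 or KK male 2. Of 16 Hippo pathway and Ras genes that bind or neighbour Rassf proteins, 1 fell and 0 rose, and 4 had an unadjusted p under 0.05 by limma; it was Mob1a, a co-activator of the LATS kinases, at -0.32 (adjusted p = 0.0173).

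The chromosome neighbours ask whether genes beside the 7 differed as well. Of 70 neighbours, the 5 nearest named and measured genes on each side of each gene in RefSeq order, 6 were higher and 8 lower in KK, against 11.7% of all probe sets called, and their differences lay between -1.27 and 0.87. Without B6 male 1 the count was 9. The neighbours of a gene spanned from 156 kb (Eif4a1) to 2211 kb (Asic5), so they are not equally close. No neighbour reached the difference of the gene it stands beside. The 7 genes were chosen for large differences, so nothing is read from this.

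Next to Rassf4 lies Depp1, a gene induced by FOXO factors on fasting, which fell by 1.27 in KK (SE 0.19, adjusted p = 0.000655 by limma), from 9.08 and 9.11 in B6 females and males to 7.74 and 7.90. It thus moved against Rassf4, and it was the one called neighbour of 10 there, beside 5 olfactory receptor genes on the other side. Cap2 had 3 called neighbours, all higher in KK as Cap2 was: Tpmt, the thiopurine methyltransferase gene, rose by 0.87 (SE 0.06, adjusted p = 2.7e-06), the adjacent Fam8a1 by 0.25 (adjusted p = 0.00428) and Atxn1 by 0.35 (adjusted p = 0.0309).

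Around Sarnp the matrix metalloproteinase gene Mmp19 fell by 0.74 (SE 0.07, adjusted p = 2.58e-05), while Itga7 differed by -0.27 and Tmem198b by 0.24. Near Eif4a1, Sat2 fell by 0.66 (adjusted p = 0.000568) and Shbg differed by 0.24, while the adjacent genes Mpdu1 and Senp3 differed by 0.00 and -0.06. Beside Capza1, St7l fell by 0.42 (adjusted p = 0.00619) and the monocarboxylate transporter gene Slc16a1 differed by 0.22. Near Gdpd3 the phenol sulfotransferase gene Sult1a1 fell by 0.57 (adjusted p = 0.00121) and the aldolase gene Aldoa by 0.29 (adjusted p = 0.0237). Near Asic5 the cathepsin gene Ctso fell by 0.32 (adjusted p = 0.000978).

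Calls of some neighbours hung on single arrays. The adjusted p by limma was 0.0602 to 0.105 for Shbg without any one array other than B6 female 2 and B6 male 2. For Tmem198b it was 0.0606 to 0.0776 without any one array other than B6 female 1, KK female 3 and KK male 2, and for Atxn1 0.0547 to 0.074 without B6 female 2, B6 female 3, B6 male 1, KK female 2, KK female 3, KK male 2 or KK male 3. For Slc16a1 it was 0.0546 to 0.0663 without one of 4 arrays of B6 (females 1 and 2, males 1 and 3) or of 3 arrays of KK (females 1 and 3, male 2). For Itga7 it was 0.0531 to 0.0717 without one of 3 arrays of B6 (female 2, males 1 and 2) or of 3 of KK (female 1, males 2 and 3), and for Aldoa 0.0524 to 0.0595 without B6 female 2, female 3 or male 3, or KK female 3. With array weights the adjusted p was 0.0943 for Atxn1, 0.0584 for Aldoa and 0.0579 for Tmem198b, and with the robust prior that follows intensity 0.0521 for Tmem198b.

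**Figure D5:**
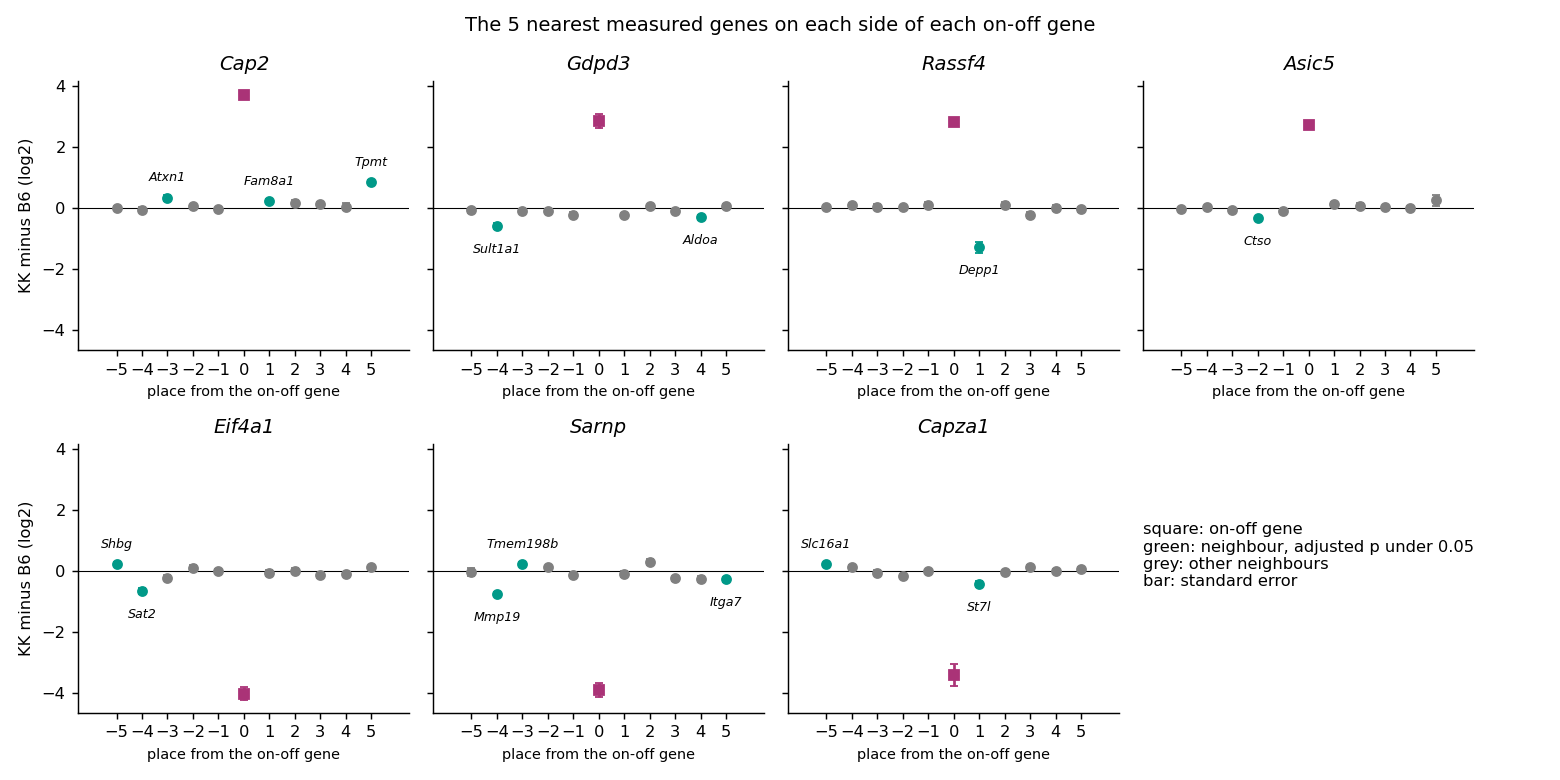
KK minus B6 difference over both sexes in log2 units (y axis) of each of the 7 genes (square at place 0) and of its 5 nearest measured genes on each side (dots, x axis in places along the chromosome), with bars for the standard error. The squares stand at -4.02 to 3.71, while the dots lie between -1.27 (Depp1, beside Rassf4) and 0.87 (Tpmt, near Cap2), and green dots are the 14 called neighbours.

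The named genes most like each of the 7 over the 12 arrays were found by Pearson correlation among 18783 others, as a description; strain sets the size of these values, and 125 to 243 genes passed 0.9 for each. Cap2 was most like Asic5 (0.994), the glutathione transferase gene Gstp3 (0.994) and Rassf4 (0.991), Asic5 like Cap2 (0.994), Gstp3 (0.986) and Rassf4 (0.986), and Rassf4 like Trim44 (0.994), Cap2 (0.991) and Asic5 (0.986). These 3 genes lie on chromosomes 13, 3 and 6. Gdpd3 was most like the cathepsin gene Ctse (0.979), Cgnl1 (0.974) and Akr1c18 (0.973). Eif4a1 was most like Akr1c12 (0.993), Fermt2 (0.993) and Oxsm (0.988), Sarnp like Pop4 (0.99), Pttg1 (0.985) and Trmt2b (0.983), and Capza1 like Depp1 (0.975), Aamdc (0.962) and Sarnp (0.959).

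Markers of other cell types were examined because several of the 7 genes are known from such cells. For scale, 11.7% of all probe sets were called between the strains, 5.42% higher and 6.31% lower in KK. In females alone 6.5% were called and in males alone 5.15%. At an unadjusted p under 0.05 by limma over both sexes there were 4808 of 21212 probe sets. Of 12 striated muscle markers, 0 were called between the strains (0 at an unadjusted p under 0.05 by limma). Their summed linear values ranged from 591 to 657 in KK females and 641 to 746 in KK males. In B6 they were 611 to 681 in females and 619 to 696 in males. Their mean log2 value was 5.48 to 5.79 on the arrays, below the array medians of 5.9 to 6.03. The sums may thus hold much background, and a change in these cells could be missed. Of 9 bile duct markers measured 0 rose and 1 fell (Pkhd1, by 0.22, adjusted p = 0.0492). Their summed values were 349 to 393 and 354 to 384 in KK females and males against 397 to 421 and 341 to 376 in B6. The mean log2 value of the bile duct markers, 5.09 to 5.31, also lay below the array medians, so the same limit holds. Of 13 Kupffer cell markers 3 fell and 0 rose, with sums of 5890 to 10100 and 2860 to 3750 in KK females and males against 5640 to 6540 and 4030 to 6090. Marco fell by 0.74 (adjusted p = 0.00575), Adgre1 by 0.59 (0.0422) and Clec4f by 0.41 (0.0298). By sex, the differences of the 13 genes lay between -0.81 and 0.73 in females and between -0.83 and -0.20 in males. In females Lyz2 was called higher (0.73, adjusted p = 0.0489 by limma) and Marco lower (-0.81, 0.0391), while Clec4f differed by -0.07. In males Clec4f (-0.75, adjusted p = 0.0144 by limma) and Csf1r (-0.75, 0.0393) were called lower. Whether the KK minus B6 value of a marker depended on sex was tested by limma, with adjusted p of 0.485 to 0.958 over the 13 genes. Of 12 sinusoidal endothelial markers 3 fell and 0 rose, with sums of 4710 to 5930 and 4060 to 4520 against 5220 to 5720 and 4260 to 4670. Lyve1 fell by 0.74 (adjusted p = 0.000143), Fcgr2b by 0.40 (0.00175) and Oit3 by 0.26 (0.0244). The call of Pkhd1 was lost without any of 10 arrays (adjusted p 0.0622 to 0.107) and with the robust prior that follows intensity (0.07), that of Adgre1 without any of 8 (0.0677 to 0.1), that of Clec4f without any of 7 (0.0528 to 0.0734) and that of Oit3 without any of 7 (0.0504 to 0.0611). Of 14 stellate and smooth muscle markers 1 rose (Rgs5 by 0.90, adjusted p = 6.07e-05) and 1 fell (Col3a1, which fell by 0.33, adjusted p = 0.00493), and of 12 hepatocyte markers Apob rose by 0.22 (adjusted p = 0.00443) and Apoa1 fell by 0.34 (0.000544). Of 10 lymphocyte markers 0 were called by limma (0 unadjusted). Their part in the values of the 7 genes was not tested.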

How the data were processed

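Liver RNA of 12 mice was measured on Affymetrix whole-transcript arrays from 300 ng of total RNA. The deposited values are log2 values, 1 per probe set and array, which the authors made with RMA and the affy package, per the submitters' processing notes; versions and the probe set definition are not given in the sources used here. Scanner files were not used here, so background correction and slide could not be varied. Of 21212 probe sets, 18786 had 1 symbol in the platform's table, 6 several and 2420 none.

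All arrays were fitted with limma 3.58.1 in R 4.3.3 with 1 mean per strain and sex and 11.99 total degrees of freedom. Tests were two-sided, p-values were adjusted by Benjamini-Hochberg over all probe sets, and a call is an adjusted p under 0.05. SE and 95% intervals come from this fit, and SDs are over 3 mice. The fit was tested on simulated data.

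The genes and lists were chosen with earlier results of these data known. Named were the 7 genes, their paralogs, up to 4 called genes per list by adjusted p, up to 3 called neighbours per gene, and the 3 most alike genes by correlation. A few further genes, such as Cfl1, Lyz2 and Csf1r, were named to complete an account. Promoters are from RefSeq (GRCm38.p6), which held all 7 genes. Alternatives were quantile and loess normalization, a filter at the median, the brightest probe set of each gene alone, a robust prior that follows intensity, weights for arrays, a block for the replicate number, fits restricted to the compared groups, and leaving out each array. The interquartile range as a covariate was added after seeing the data.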

Additional observations from a re-analysis of the deposited data

How the results depend on the processing

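The 6 KK and 6 B6 (C57BL/6J) values did not overlap for any of the 7 genes under any setting run. The genes were chosen for large strain differences, and most settings leave the array values as they are. Nothing is therefore read from the lack of overlap or from the direction of the differences. Gdpd3 falls out under the filter at the median, which left 6. The strain differences kept their direction under all settings, and lay between -3.68 and -2.87 for Capza1, -4.07 and -3.56 for Sarnp, -4.21 and -3.83 for Eif4a1 and 2.67 and 3.04 for Gdpd3. Over both strains and in B6, 0 of the 7 genes were called between the sexes under every setting run. In KK, where the values are a description, 1 (Rassf4) was called after quantile normalization, with array weights and with the interquartile range as a covariate, and 0 without any one array. The count of called paralogs over both sexes, 2 as reported, was 4 after quantile or loess normalization, with array weights and with the replicate block, 6 with the interquartile range, and 2 to 3 without 1 array. In females it was 2 under those 5 settings and 0 to 1 without 1 array. In males it was 4 with array weights, 3 with the interquartile range, 2 with the filter, the trended prior and the replicate block, 0 with only the groups compared, and 0 to 2 without 1 array. The count of partner genes, 19, was 30 with the interquartile range, 26 after quantile or loess normalization, 24 with array weights, 25 with the replicate block and 13 to 18 without 1 array. That of neighbours, 14, was 17 after quantile or loess normalization, 16 with array weights, 18 with the interquartile range and 9 to 13 without 1 array. Where a count differed, the cause was not tested. The labels do not say that the replicate numbers pair the mice. Of 18 pairs of arrays of different groups with the same number, 10 deviated together by a correlation above 0.1, with values from -0.36 to 0.48, so the numbers were not taken as a pairing, although 8 of 12 arrays were most like an array of their own number, a hint from the data. With the replicate block Gde1 (adjusted p = 0.00384) and Rassf5 (0.0431) were called and Adgre1 was not (0.0544). The median of all strain differences was 0.01 as deposited and 0 after quantile or loess normalization. Of the probe sets called between the strains, 53.8% were lower in KK as deposited. This share was 48.9% after quantile and 49.6% after loess normalization, so the excess of lower calls depended on the processing. The number of arrays limits the precision, and depth has no counterpart here.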

Other observations

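Beside the 7 genes, 12 other probe sets had no overlap between the strains and a difference at least as large as that of Asic5, 6 higher and 6 lower in KK, and 3 of them have no name here. These 3 were all lower in KK, at means of 9.71 against 6.66, 8.9 against 5.66 and 8.92 against 5.05 in C57BL/6J and KK.

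Among the paralogs, 2 were called between the sexes over both strains. Rassf3, another Ras association domain gene, was higher in males by 0.64 (SE 0.11, adjusted p = 0.00508 by limma), by 0.85 in C57BL/6J (adjusted p = 0.0162) and by 0.44 in KK (adjusted p = 0.185), and the difference between the strains in this value had an adjusted p = 0.827. Cap1 differed by -0.23, lower in males (SE 0.06, adjusted p = 0.0395 by limma).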
